A study of Bos taurus with 8 samples.

Results

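The 28 genes described here make, sense, move, store or export cholesterol. They were the genes of a fixed name list that were present in the deposited table of day-15 bovine conceptuses, and all 28 of the 28 listed names were found among its 15267 genes. They comprise 19 synthesis enzymes, 3 regulators of the sterol sensing system and 6 genes of uptake, intracellular transport, storage and export. The rule matches names and uses no measured value, but the names were listed with earlier results of these data known. RNA was sequenced from conceptuses of the filamentous stage, each sample being labelled as a conceptus-half that came from in vitro embryo development. In the group called FLI (n = 4), fibroblast growth factor FGF2, leukemia inhibitory factor LIF and insulin-like growth factor IGF1 had been added. The control group (n = 4) is labelled only as control. The title of the study concerns survival and elongation after slow-rate freezing. The sources used here do not give the samples that had been frozen, the dose of the factors or the day of their addition.

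Cells make cholesterol from acetyl-CoA through mevalonate, farnesyl diphosphate, squalene and lanosterol. The transcription factor SREBF2 (SREBP2) switches most genes of this route on when membranes of the endoplasmic reticulum run low in sterol: SCAP carries it to the Golgi for cleavage, and INSIG1 holds both back when sterol is plentiful. Cholesterol taken up or made in excess is passed on by carrier proteins, esterified for storage or exported. In the ruminant conceptus, sterol serves the membranes of a rapidly elongating trophectoderm, and it is the substrate of steroid hormones.

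The libraries held 108851495 to 152570016 reads in the genes of the table. Levels are the authors' CPM, read counts divided by a library total that was scaled by TMM, a method that aligns libraries on the bulk of their genes. The samples are called by the ends of their titles, FLI 20, 3M, 4M and 50 and control 10, 20, 3M and 4M, and values of a gene are always given in this order. A label from the title is shared by both groups for 20, 3M and 4M, and no label says what it marks. All 10 trophectoderm markers checked were in the table, with summed levels of 18988 to 26027 CPM in FLI and 14520.2 to 24515 CPM in control. Most of each sum came from the keratins KRT8, KRT18 and KRT19. Markers of other tissues were also present. Of 11 hypoblast markers (the endoderm that lines the early yolk sac) 10 were in the table and summed to 864 to 2381 CPM in FLI and 605 to 6657 CPM in control, with AFP at 0 reads in 5 of the 8 libraries. Epiblast markers (6 of 10 in the table) summed to 92.1 to 216 CPM in FLI and 106 to 389 CPM in control. Mesoderm markers (9 of 10) summed to 7.86 to 26.2 CPM in FLI and 9.68 to 129 CPM in control, with TBXT at 0 reads in 3 of the 8 libraries. Of blood markers 1 of 7 was in the table (0.553 to 66.6 CPM in FLI and 1.51 to 4.06 CPM in control), of leukocyte markers 2 of 5 (sums of 2.60 to 14.6 CPM in FLI and 2.44 to 7.16 CPM in control) and of endometrium markers 4 of 7 (1.85 to 3.66 CPM in FLI and 2.59 to 5.73 CPM in control). In such bulk samples, fewer cells of a type and less RNA per cell cannot be told apart. No label says that the samples came from separate animals or cultures, so p-values measure only the spread between these samples.

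All 28 genes had at least 1 CPM in at least 4 samples and entered the test. Levels between genes are compared per length, as mean CPM per kilobase of exon over the 8 samples. The synthesis enzymes had a median of 43.8 CPM per kilobase, the regulators 23.6 and the uptake, storage and export genes 80.9, beside 10.2 over all 11897 tested genes. The highest of the enzymes were those of the first steps, ACAT2 at 148 CPM per kilobase, which condenses acetyl-CoA to acetoacetyl-CoA in the cytosol, and HMGCS1 at 116, which makes HMG-CoA. Further down the route the levels were lower: the mevalonate kinase MVK was at 11.6 CPM per kilobase and the phosphomevalonate kinase PMVK at 9.95. From the diphosphate decarboxylase MVD (33.6 CPM per kilobase) onward, the level was higher again, at 64.2 for the isopentenyl diphosphate isomerase IDI1, 70.8 for the farnesyl diphosphate synthase FDPS and 61.5 for the squalene synthase FDFT1. The squalene epoxidase SQLE was at 43.8 CPM per kilobase and LSS, which closes the rings to lanosterol, at 12.3. After the demethylase CYP51A1 (56.0 CPM per kilobase), a double bond is reduced by either of 2 related enzymes, and these differed widely: LBR, which is also a protein of the nuclear envelope, was at 18.9 CPM per kilobase and TM7SF2 at 0.777. TM7SF2 shares 18.1% of its exon bases with VPS51 on the same strand and 18.0% with ZNHIT2 on the other, and how reads in those bases were assigned is not stated. Of the demethylation complex, MSMO1 was at 92.9 CPM per kilobase, NSDHL at 39.4 and HSD17B7 at 7.68. The last steps stood at 41.8 CPM per kilobase for the isomerase EBP, 54.0 for the desaturase SC5D and 63.8 for the reductase DHCR7.

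**Figure D1:**
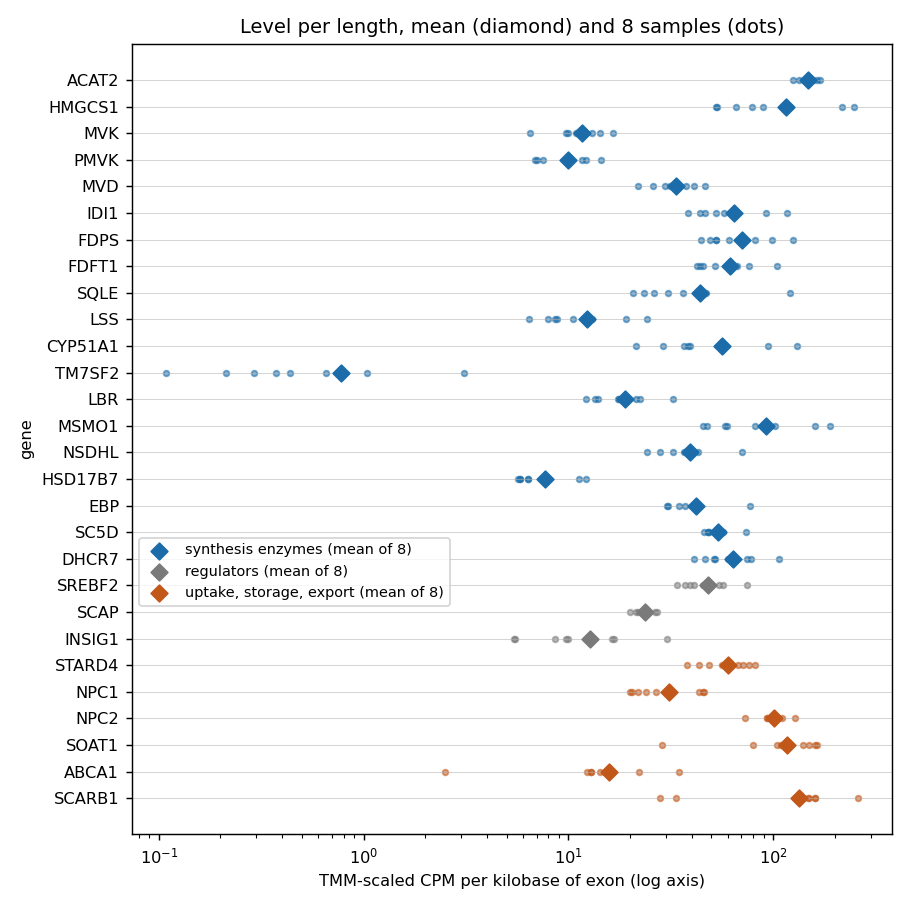
Level of each of the 28 genes in TMM-scaled CPM per kilobase of exon (log axis), with a diamond for the mean and dots for the 8 samples. ACAT2 (148) and SCARB1 (134) are at the top and TM7SF2 (0.777) stands far below the rest.

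The comparison of FLI with control asked whether the added factors changed these genes. No member passed: limma called 0 of 28 at an adjusted p of 0.05 and 0 of all 11897 tested genes (0%), and 0 of the 28 had an unadjusted p under 0.05, which 2.84% of tested genes had. The smallest p of a member was that of SOAT1, at an adjusted p of 0.97 by limma. The groups overlapped for all 28 genes, while 0.841% of tested genes had all FLI samples above all controls and 0.605% had all below. The synthesis enzymes had a median log2 difference of 0.00, and 10 of 19 had a higher mean log2 level in FLI, against 4 of 19 when scaled by library total alone, which shifted the median of all genes to -0.09. Over all tested genes the median was also 0.00, with 50.8% higher. The 6 uptake, storage and export genes had a median of 0.26, with 5 of 6 higher. The edgeR quasi-likelihood test on the recovered reads called 0 genes (0%), DESeq2 called 0.0756% of genes and edgeR's likelihood ratio test under robust weights of the observations 0.185%, and none of these 3 called a member. In the authors' deposited table, 32 genes (0.21%) have an adjusted p under 0.05 and 0 of them are among the 28.

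**Figure D2:**
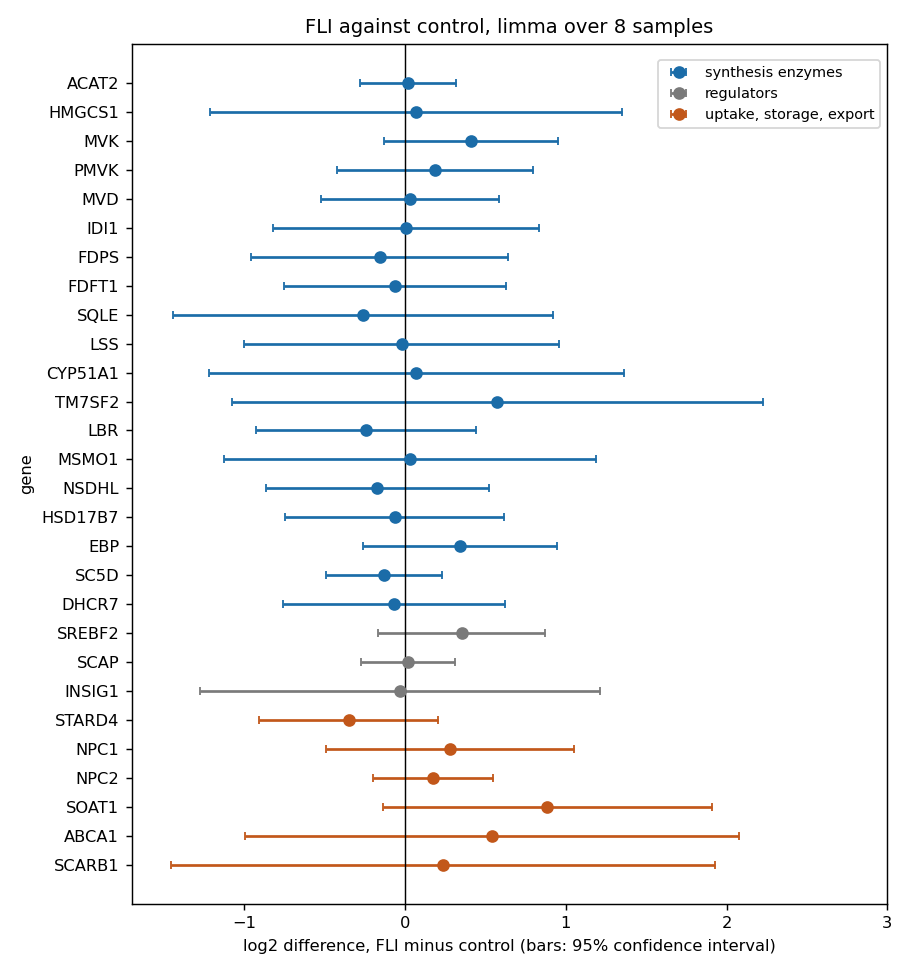
Log2 difference of FLI minus control for each of the 28 genes, with 95% confidence intervals from limma over 8 samples. Every interval includes 0, from the narrow interval of SCAP (-0.27 to 0.31) to the wide one of SCARB1 (-1.46 to 1.93).

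Precision differed between members. ACAT2 (ENSBTAG00000002827, chromosome 9, 96029107 to 96044723 of ARS-UCD1.2) was at 275, 249, 261 and 264 CPM in FLI, against 289, 301, 220.3 and 236 CPM in control. It averaged 262 ± 10.9 CPM in FLI and 262 ± 39.5 CPM in control (SD, n = 4 each), with a log2 difference of 0.02 and a 95% confidence interval of -0.28 to 0.31. Of its exon bases 4.82% are shared with TCP1 on the other strand. HMGCS1 (ENSBTAG00000011839, chromosome 20, 31431008 to 31456871) was at 1120.2, 341, 405 and 462 CPM in FLI, against 1280.2, 624, 273 and 272 CPM in control. Samples of both groups stood high and low in it, and its difference of 0.07 had an interval of -1.22 to 1.35. For ACAT2 the interval leaves out a change of 1 log2 unit in either direction, and for HMGCS1 it does not.

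The 6 synthesis enzymes of smallest p were MVK, EBP, SC5D, LBR, TM7SF2 and PMVK. MVK (ENSBTAG00000005183, chromosome 17, 63607270 to 63628642) was at 43.8, 60.1, 39.5 and 47.2 CPM in FLI, against 51.5, 35.1, 23.7 and 36.2 CPM in control. Control 10 lay inside the FLI range and the other controls below it, and the log2 difference was 0.41 (SE 0.24, adjusted p = 0.97 by limma) and 0.22 without control 3M. PMVK, the enzyme after it, was at 20.5, 16.6, 9.74 and 13.6 CPM in FLI, against 17.3, 14.3, 10.7 and 9.98 CPM in control, a log2 difference of 0.19 (SE 0.27) and of 0.03 without FLI 20. EBP was at 90.8, 50.03, 35.8 and 48.0 CPM in FLI, against 48.0, 40.6, 35.4 and 43.4 CPM in control. FLI 20 stood above the other 7 samples of EBP, and the log2 difference was 0.34 with it (SE 0.26) and 0.08 without it. SC5D was at 145, 128, 123 and 149.5 CPM in FLI, against 151, 196, 129 and 128 CPM in control. Its samples stood close together, with control 20 the highest, and its log2 difference was -0.13 (SE 0.16) with control 20 and 0.00 without it. LBR was at 32.5, 33.6, 42.9 and 54.2 CPM in FLI, against 78.5, 51.5, 29.4 and 42.1 CPM in control, with the highest and the lowest value both in control (log2 difference -0.24, SE 0.30, and -0.00 without control 10). TM7SF2 was at 10.2, 1.44, 0.961 and 1.23 CPM in FLI, against 3.4, 2.15, 0.358 and 0.703 CPM in control. Its highest sample was 28.5 times its lowest, the widest span of the 28 genes, and its log2 difference was 0.57 with FLI 20 (SE 0.72) and -0.09 without it.

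The enzymes were high or low together in particular samples of both groups. Relative to each gene's mean over the 8 samples, the mean log2 level of the 19 enzymes was 0.59 in FLI 20, -0.14 in FLI 3M, -0.30 in FLI 4M and -0.09 in FLI 50, against 0.77 in control 10, 0.20 in control 20, -0.60 in control 3M and -0.42 in control 4M. In control 10 all 19 enzymes were above their mean and 18 were in FLI 20, while 0 were in control 3M, control 4M and FLI 4M. The share of all tested genes above their mean was not computed for these samples. Control 10 held the highest value of 12 enzymes, where it held that of 23.9% of tested genes, and FLI 20 that of 4 (20.1%). Both samples were often lowest as well, control 10 for 28.3% of tested genes and FLI 20 for 19.3%. Control 3M held the lowest value of 12 (13.2% of tested genes) and control 4M that of 5 (11%). The summed level of the enzymes was 3587, 1878, 1825 and 2092 CPM in FLI, against 4301, 2657, 1486 and 1588 CPM in control. Their reads made up 0.175 to 0.347% of a library's reads in FLI and 0.152 to 0.456% in control. The median span of an enzyme over the 8 samples was 1.40 on the log2 scale, beside 0.94 over all tested genes. Within the groups it was 0.93 in FLI (0.60 over all genes) and 1.40 in control (0.69).

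**Figure D3:**
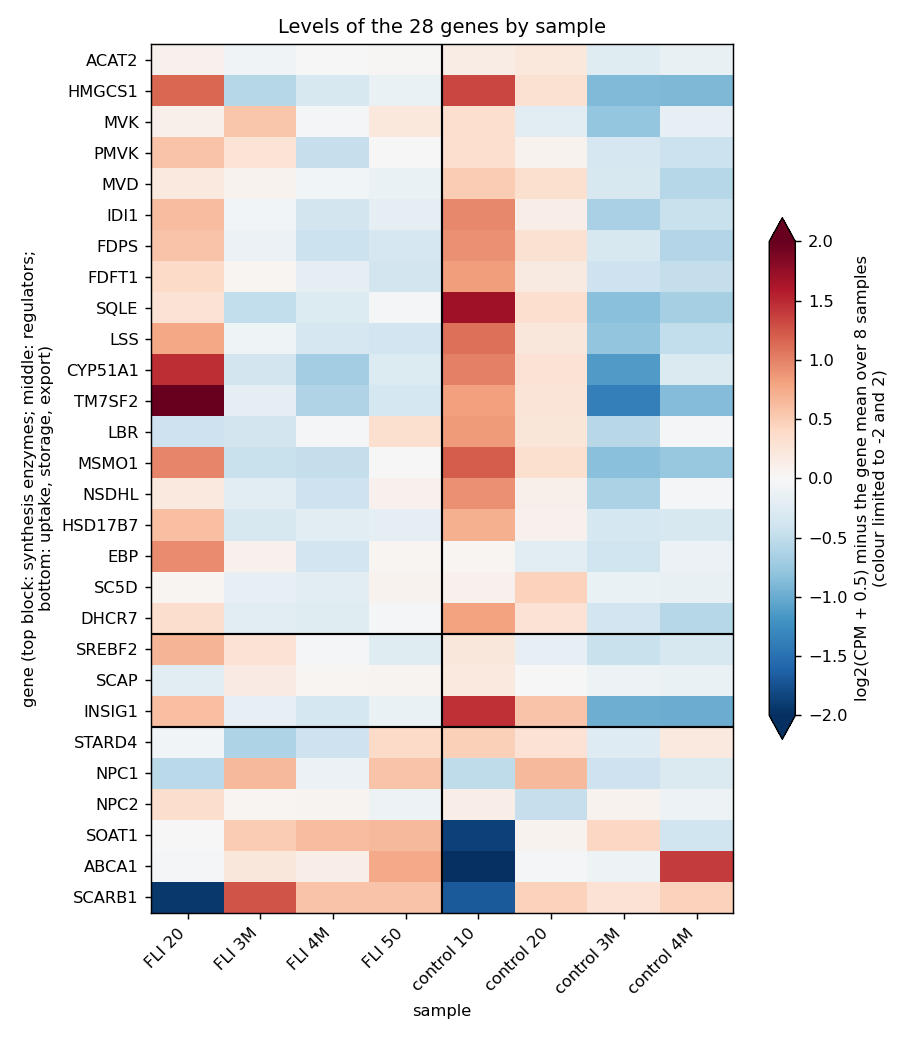
Colour gives log2(CPM + 0.5) minus the mean of the gene over 8 samples, with FLI on the left, control on the right and lines between the 3 sets of genes. The synthesis block is mostly red in FLI 20 (18 of 19 enzymes above their mean) and red in control 10, and it is blue in control 3M and control 4M, and SCARB1 is blue where that block is most red.

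CYP51A1, SQLE and MSMO1, which had wide spans, were picked once their values were known. CYP51A1 was at 362, 101, 80.2 and 108 CPM in FLI, against 262, 159, 58.9 and 106 CPM in control, with FLI 20 the highest sample. SQLE, a rate-limiting enzyme of the route, was at 137, 79.8, 93.5 and 109 CPM in FLI, against 367, 142, 62.7 and 70.7 CPM in control, with control 10 the highest. MSMO1 was at 329, 122, 119 and 167 CPM in FLI, against 388, 209, 93.1 and 97.8 CPM in control, and both FLI 20 and control 10 stood above the other samples. The remaining enzymes (MVD, IDI1, FDPS, FDFT1, LSS, NSDHL, HSD17B7 and DHCR7) had their highest value in control 10 as well, and their log2 differences lay between -0.17 for NSDHL and 0.03 for MVD. Each highest sample of these 8 was 2.12 to 3.76 times the lowest.

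In each of these 8 enzymes the FLI range lay within the control range. MVD, which gives the first isoprene unit, ranged over 53.2 to 67.4 CPM in FLI, against 39.3 to 83.5 CPM in control. IDI1 ranged over 62.7 to 125 CPM in FLI, against 51.7 to 158 CPM in control, and FDPS, which joins the isoprene units, over 104 to 209 CPM in FLI, against 93.9 to 267 CPM in control. In all 3 the control range reached lower and higher than that of FLI. FDFT1, which commits farnesyl diphosphate to squalene, ranged over 95.5 to 161 CPM in FLI, against 89.0 to 220.4 CPM in control. LSS ranged over 37.0 to 82.5 CPM in FLI, against 27.6 to 104 CPM in control. NSDHL, which removes a carbon from the sterol ring, ranged over 64.9 to 100.2 CPM in FLI, against 56.1 to 164 CPM in control. HSD17B7, which acts with it, ranged over 14.1 to 27.4 CPM in FLI, against 13.8 to 29.7 CPM in control, and DHCR7, which makes cholesterol in the last step of one branch, over 163 to 247 CPM in FLI, against 131 to 338 CPM in control.

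The sum of the hypoblast markers was highest in control 10 as well, and lowest in control 3M and control 4M. It was 2381, 1249.7, 864 and 2324 CPM in FLI, against 6657, 3015, 668 and 605 CPM in control. Most of it was APOA1, an apolipoprotein that carries cholesterol, at 437 to 6183 CPM. Taken singly, 7 of the 10 hypoblast markers were highest in control 10 (23.9% of tested genes). GATA6 was highest in FLI 20, AFP in control 20 and PDGFRA in control 4M. Control 3M held the lowest value of 6 (13.2% of tested genes) and control 4M that of 2 (11%), while PDGFRA was lowest in FLI 20. Of the 9 hypoblast markers tested 0 were called. Control 10 also held the highest sums of the epiblast (389 CPM), mesoderm (129 CPM) and endometrium markers (5.73 CPM). FLI 20 held the lowest epiblast (92.1 CPM) and mesoderm sums (7.86 CPM) and the highest blood (66.6 CPM) and leukocyte sums (14.6 CPM). The hypoblast sum of FLI 50 was near that of FLI 20, while the mean log2 enzyme level was -0.09 in FLI 50 and 0.59 in FLI 20. The trophectoderm markers did not go one way in control 10. Their sum there was 21503 CPM, within the 14520.2 to 24515 CPM of the other controls. Most of it was keratin, with KRT8 at 10694 CPM, KRT18 at 5089 CPM and KRT19 at 5495 CPM, so it says little of the other markers. Of the 10 trophectoderm markers, 5 were lowest of all 8 libraries in control 10, as were 28.3% of tested genes. They were CDX2, GATA2, GATA3, TFAP2A and TFAP2C, all transcription factors. GATA3 was at 11.7 CPM in control 10 against 61.2 to 98.6 CPM in the other controls and CDX2 at 6.92 CPM against 35.9 to 94.9 CPM. The keratin KRT19 was highest of all 8 in control 10, at 5495 CPM, and the transcription factor ELF5 was at 2.72 CPM there against 1.72 to 3.62 CPM. In FLI 20, the other sample high in the enzymes, GATA3 was at 221 CPM, where FLI 3M, 4M and 50 had 81.7 to 142 CPM, and CDX2 was at 27.2 CPM, where those 3 had 38.3 to 86.3 CPM. FLI 20 also stood apart in ALAS2, a marker of red blood cells, and CD14, a marker of myeloid cells: ALAS2 was at 66.6 CPM there against 0.553 to 4.06 CPM in the other 7 samples, and CD14 at 11.3 CPM against 0.122 to 4.36 CPM. The part of these markers in the levels of the enzymes was not tested.

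The samples whose title ends in 0 had higher enzyme levels than those whose title ends in M. In the controls, both samples ending in 0 were above both ending in M for 17 of 19 enzymes (25.6% of tested genes), and in FLI for 9 of 19 (20.7%). This held in both groups for 9 enzymes, where 11.1% of tested genes did so. The median log2 difference, titles ending in 0 minus titles ending in M, was 0.65 over the 19 enzymes and -0.04 over all tested genes. The labels leave the meaning of the last character unstated, and this difference was not tested.

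Set within 1 title ending, the median differences of the enzymes had opposite signs. Among titles ending in M, 18 of 19 enzymes had a higher mean in FLI (49.1% of tested genes), with a median log2 difference of 0.29, and for 12 both FLI samples were above both controls (15.4% of tested genes). Among titles ending in 0, 4 of 19 were higher in FLI (52.8% of tested genes), with a median of -0.31, and for 4 both FLI samples were below both controls (17.7%). The controls there were control 20 and control 10, which held the highest value of 12 enzymes. FLI 20 was higher than control 20 in 14 of 19 enzymes. HMGCS1 differed by 0.45 among titles ending in M and by -0.31 among those ending in 0, and SQLE by 0.37 and -0.90. The interaction of treatment and title ending, fitted by limma over all genes, was called for 0 genes (0%) and 0 members (smallest adjusted p of a member 0.763). It had an unadjusted p under 0.05 for 2 of 28 members, MVD and INSIG1, and for 6.08% of tested genes. Both FLI samples lay above both controls in M and below them in 0 for 3 of 19 enzymes and for 3.24% of tested genes. A difference of the FLI effect between the title endings was therefore not shown.

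**Figure D4:**
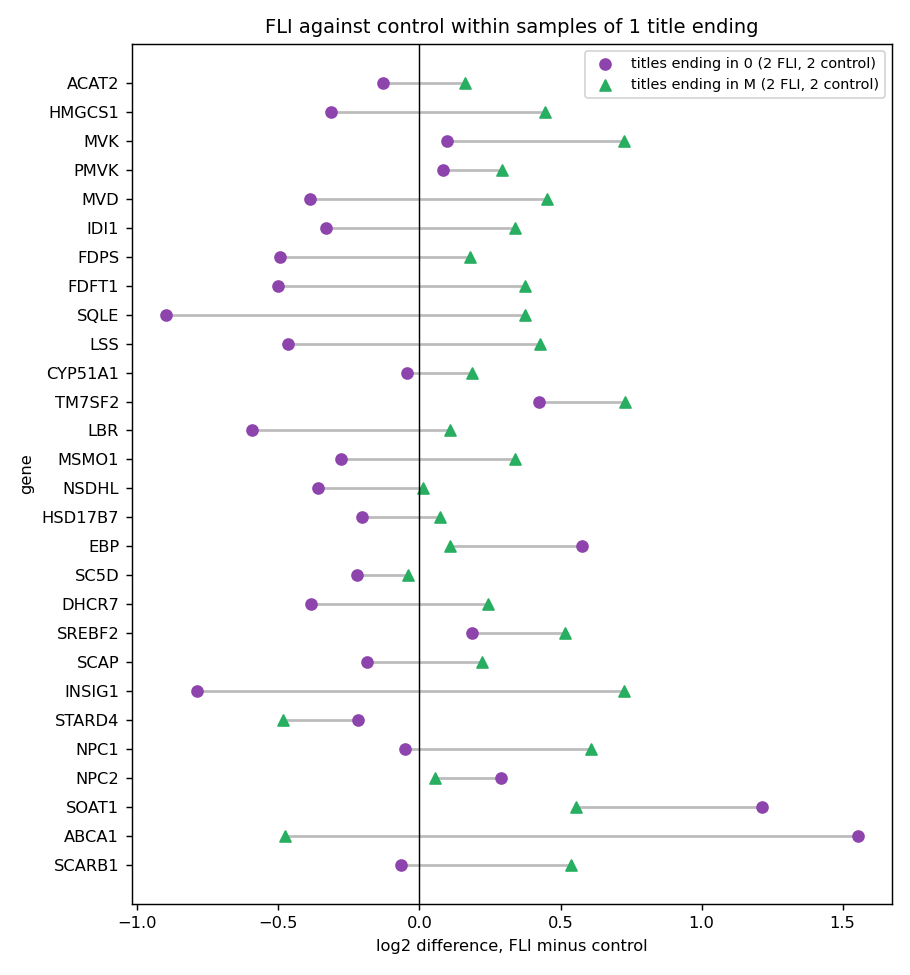
Log2 difference of FLI minus control for each gene, from the 4 samples with titles ending in 0 (circles) and the 4 ending in M (triangles). For the synthesis enzymes the triangles lie right of 0 for all but SC5D (-0.04) and the circles left of 0 for all but MVK, PMVK, TM7SF2 and EBP.

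Taken as pairs of equal number, FLI 20 was higher than control 20 in 14 of 19 enzymes (49.5% of tested genes), FLI 3M than control 3M in 18 (49.7%) and FLI 4M than control 4M in 14 (48.5%). The median log2 difference was 0.32, 0.39 and 0.15 in these 3 pairs. With the number as a replicate block on these 6 samples, limma gave a median of 0.32 for the enzymes, with 17 of 19 higher (50% of tested genes). The block called 0 members and 0 genes (0%), with 8 of the 28 members at an unadjusted p under 0.05 (6.77% of tested genes) and none under an adjusted p of 0.695. The pairs leave out control 10 and FLI 50. With control 10 alone left out of the 8 samples, 17 of 19 enzymes were higher in FLI with a median of 0.26, and without FLI 20 alone 3 of 19 were, with a median of -0.20. Without control 3M or control 4M, 4 of 19 were higher, with medians of -0.21 and -0.19.

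The 3 regulators showed different spreads. SREBF2 (ENSBTAG00000014265, chromosome 5, 112832407 to 112890177), the transcription factor itself, was at 386, 296, 236 and 204 CPM in FLI, against 284, 215, 177 and 193 CPM in control. It averaged 281 ± 80.1 CPM in FLI and 217 ± 47.0 CPM in control (SD, n = 4 each), a log2 difference of 0.35 (SE 0.23, adjusted p = 0.97 by limma). FLI 20 and FLI 3M lay above all controls and the other FLI samples inside the control range, and without FLI 20 the difference was 0.18. SCAP, its escort protein, was at 116, 152, 138 and 140.4 CPM in FLI, against 155, 135, 125 and 123 CPM in control. It had the narrowest span of the 28 genes, with its highest sample 1.34 times its lowest, and a log2 difference of 0.02 with an interval of -0.27 to 0.31. Of its exon bases 10.7% are shared with PTPN23 on the other strand. INSIG1 was at 57.5, 33.6, 29.6 and 34.3 CPM in FLI, against 105, 56.5, 19.0 and 18.8 CPM in control. Like the enzymes, it was highest in control 10 and lowest in control 3M and control 4M, and its log2 difference was -0.03 (SE 0.55). Among titles ending in M it was 0.72 and among those ending in 0 it was -0.79.

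The storage gene SOAT1 had the smallest p of all members. SOAT1 (ENSBTAG00000004059, chromosome 16, 60633331 to 60693186), which esterifies cholesterol for lipid droplets, was at 232, 332, 358 and 364 CPM in FLI, against 63.6, 244, 310.3 and 177 CPM in control. Of the FLI samples, 3 stood above all controls and FLI 20 lay inside the control range. SOAT1 averaged 322 ± 61.3 CPM in FLI and 199 ± 105 CPM in control (SD, n = 4 each). Its log2 difference was 0.89 with an interval of -0.14 to 1.91 (SE 0.45, adjusted p = 0.97 by limma). Control 10 was the lowest sample, as it was for 28.3% of tested genes, and without control 10 the difference was 0.41. Its sign was the same in all 20 alternatives, some of which could not change it by design.

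SCARB1 and ABCA1 each stood apart in 1 or 2 libraries. SCARB1, the receptor for cholesterol of high-density lipoprotein, was at 72.4, 669, 413 and 415 CPM in FLI, against 86.4, 381, 340.4 and 384 CPM in control. FLI 20 and control 10, the samples highest in HMGCS1, were the lowest in SCARB1, and the other 6 samples ranged from 340.4 to 669 CPM. Its log2 difference was 0.24 (SE 0.74), with 0.92 without FLI 20 and -0.29 without control 10. ABCA1, which exports cholesterol to apolipoproteins such as APOA1, was at 95.6, 114, 107 and 165 CPM in FLI, against 18.6, 95.8, 91.2 and 258 CPM in control. Both the highest and the lowest sample were controls, and the log2 difference of 0.54 (SE 0.67) was -0.16 without control 10. Of the 10 trophectoderm markers, 5 were also lowest in control 10 (28.3% of tested genes) and 1 was highest there, and their part in these values was not tested.

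The carriers varied less. STARD4, which moves sterol between membranes, was the 1 gene of this set with a lower mean in FLI, at 44.6, 30.3, 34.8 and 60.5 CPM in FLI, against 64.7, 56.8, 38.8 and 53.5 CPM in control. The ranges overlapped, and the log2 difference was -0.35 (SE 0.24, adjusted p = 0.97 by limma). It was negative in all 20 alternatives, some of which could not change it by design. NPC2, which hands cholesterol over inside the lysosome, was at 192, 154, 156 and 140.3 CPM in FLI, against 165, 109, 159 and 140.1 CPM in control, a log2 difference of 0.17 (SE 0.16). NPC1, the membrane protein that receives it, was at 96.6, 219, 129 and 209 CPM in FLI, against 98.5, 219.9, 106 and 115 CPM in control. FLI 3M, FLI 50 and control 20 stood at 209 to 219.9 CPM and the others at 96.6 to 129 CPM, with a log2 difference of 0.28 (SE 0.34). Of its exon bases 3.97% are shared with RMC1 on the other strand. Over the 6 genes, the median difference was 0.26 in all samples, -0.00 without control 10 with 3 of 6 genes higher, and -0.15 with the replicate block, again with 3 of 6 higher.

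**Figure D5:**
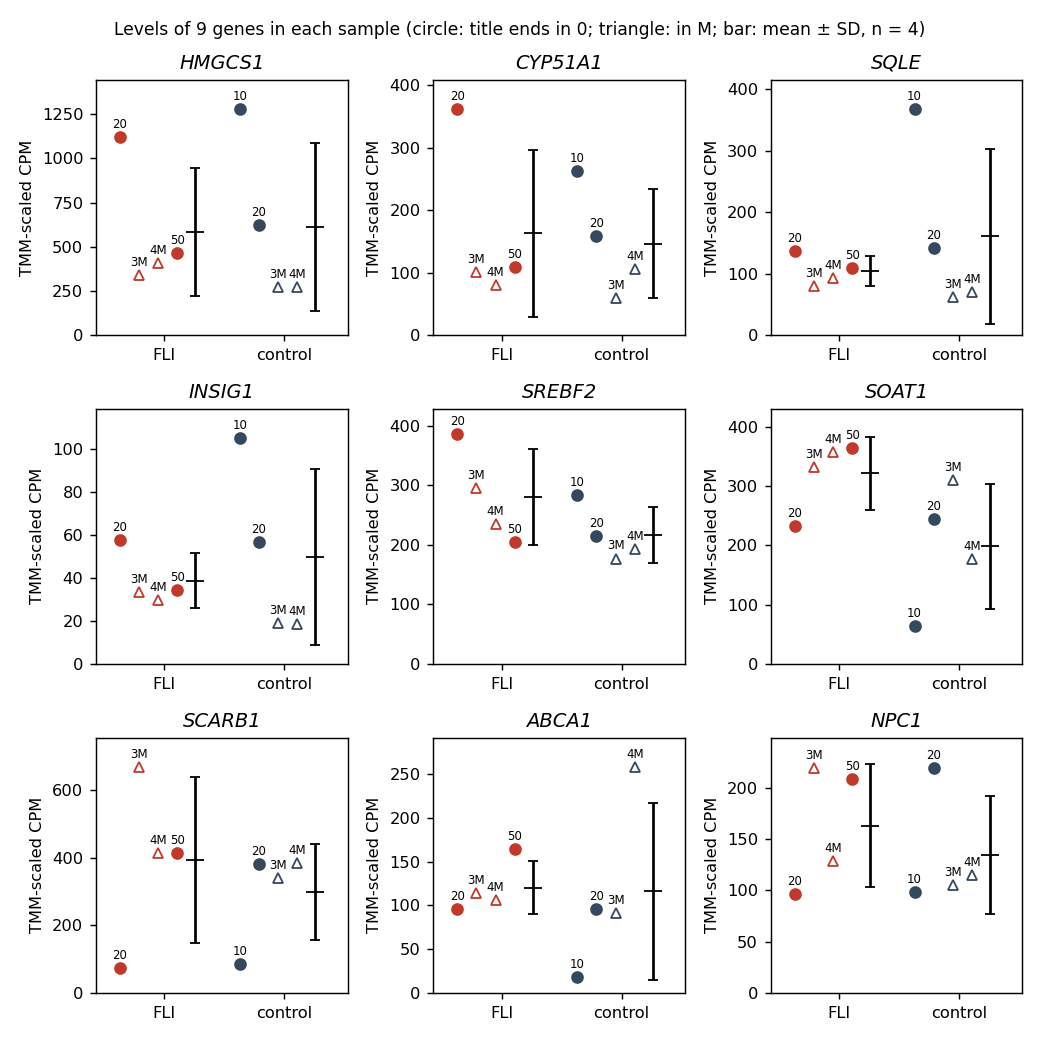
TMM-scaled CPM of 9 genes in each sample, FLI left and control right, circles for titles ending in 0 and triangles for those ending in M, with mean ± SD (n = 4) beside each group. FLI 20 and control 10 are the highest samples of HMGCS1 (1120.2 and 1280.2) and the lowest of SCARB1 (72.4 and 86.4).

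Of 59 other genes of sterol handling, listed with earlier results of these data known, 50 were in the table and 43 were tested. The test called 0 of them in either direction (0% of tested genes), and 1 had an unadjusted p under 0.05 (2.84% of tested genes). Of the 43, 23 were higher in FLI (50.8% of tested genes), with a median log2 difference of 0.04. These counts were near the shares over all tested genes. RXRA, STARD5 and ABCG5 were among the 4 of smallest p. RXRA, the nuclear receptor that pairs with the oxysterol receptors, was at 235, 176, 164 and 109 CPM in FLI, against 27.4, 93.9, 155 and 87.9 CPM in control (log2 difference 1.10, SE 0.49, adjusted p = 0.97). Control 10 was lowest again, as it was for 28.3% of tested genes, and the ranges of the groups overlapped. STARD5, a sterol-binding protein, was at 10.7, 10.2, 6.13 and 7.45 CPM in FLI, against 2.61, 5.55, 6.87 and 6.2 CPM in control (0.69, SE 0.31). ABCG5, a subunit of a sterol exporter, was close to off in 4 samples: it was at 0.734, 63.7, 148 and 40.9 CPM in FLI, against 1.27, 0, 0.00746 and 83.5 CPM in control. The 0 reads of control 20 allow at most 0.0194 CPM, counting error alone considered and each read taken as independent. The high and low samples of ABCG5 fell in both groups, and its log2 difference of 3.42 had an SE of 1.95.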

How the data were processed

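RNA was measured in 4 FLI and 4 control samples after poly-A enrichment with a stranded kit, per the labels' protocols. The submitters' processing notes list the tools HISAT2, featureCounts, FastQC and edgeR, with ARS-UCD1.2 as build. Versions, the strand setting and the treatment of multi-mapping reads are not given in those notes. Each sample's signal, as deposited, is a CPM whose library total was TMM-scaled, judged from its values: 100% of the values are whole multiples of 1 step per column within 0.001 reads, and 1 read is 0.00646 to 0.00987 CPM. Of recovered counts between 1 and 20, 57.8% were even, so the mates of a read pair may have been counted separately, which was not tested; limits and errors from counts would then be too narrow. Per the file headers, the authors also deposited, for each gene, their log2 fold change and log2 mean level, the score of their likelihood ratio test and its p-value, raw and adjusted.

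Differences were tested with limma 3.58.1 (R 4.3.3, eBayes with trend) on log2(value + 0.5), which understates changes of low genes, for the 11897 genes with at least 1 CPM in at least 4 samples. P-values are two-sided and adjusted by Benjamini-Hochberg over all tested genes (threshold 0.05). edgeR 4.0.16 and DESeq2 1.42.0 on recovered reads, other scalings, pseudocounts and sample sets were alternatives, 20 in all. In the 3 pairs of equal title number (20, 3M and 4M), deviations from the mean of the group had correlations of 0.133, 0.351 and 0.359, each over 0.1, so the number was fitted as a replicate block; pairs sharing only the last character correlated at 0.155 to 0.312. Lists were described by counts and medians without a test. Values in every sample are given for the 6 enzymes and 3 other transport genes of smallest p, those of highest level per length, the regulators, and 3 of the 4 further pathway genes of smallest p; the other is not reported here. CYP51A1, SQLE, MSMO1, NPC1 and ABCA1 were added after their values were seen. The members and lists were chosen with earlier results of these data known. Gene names are those of the deposited table. Intervals from counts (3 reads where 0 were seen) cover counting error alone.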

Additional observations from a re-analysis of the deposited data

Results flagged for a closer look

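Of the 56 groups of 4 samples (28 genes in FLI and in control), 7 held a sample whose gap to its nearest neighbour exceeded Dixon's 95% limit. Chance flags about 1 in 20 groups, and the genes share libraries, so these are not independent. FLI 20 was the high sample in 5 of them, and it also held the highest ALAS2 (66.6 CPM) and CD14 (11.3 CPM) of the 8 samples, whose part was not tested. It had 1120.2 CPM of HMGCS1 (other FLI samples 341 to 462), 362 CPM of CYP51A1 (80.2 to 108), 10.2 CPM of TM7SF2 (0.961 to 1.44), 27.4 CPM of HSD17B7 (14.1 to 15.5) and 57.5 CPM of INSIG1 (29.6 to 34.3). Control 20 stood above the other controls in NPC1, with 219.9 CPM against 98.5 to 115. Control 10 stood below them in SCARB1, with 86.4 CPM against 340.4 to 384.

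For 3 synthesis enzymes, both FLI samples lay above both controls among titles ending in M and below them among titles ending in 0, which 3.24% of tested genes did. The FLI effect among titles ending in 0 minus that among titles ending in M was -0.29 on the log2 scale for ACAT2, -0.84 for MVD and -1.27 for SQLE. The interaction test of limma called none of the 3, with adjusted p of at least 0.763 for every member.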

How the results depend on the processing

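No member was called under any of the 20 alternatives. In 460 of 560 combinations of a member and an alternative the log2 difference kept its sign, and in the other 100 it changed sign without a call. The last character as a covariate and the fit without the lower limit on CPM cannot change a member's log2 difference. Their part of the 460 was therefore fixed in advance. The sign was the same under all 20 for EBP, MVK, NPC2, PMVK, SOAT1, SREBF2 and STARD4. Over all genes, limma called 0, DESeq2 called 9 (608 at an unadjusted p under 0.05) and edgeR's likelihood ratio test under robust weights 22 (470), where limma had 338 and the edgeR quasi-likelihood test 376. Leaving out 1 sample gave 0 calls each time. The median difference of the synthesis enzymes ranged from -0.21 to 0.26 when 1 sample was left out, and that of the uptake, storage and export genes from -0.00 to 0.57. With library total alone in place of TMM the enzyme median was -0.10 with 4 of 19 higher, while the median of all genes was -0.09. The replicate block gave medians of 0.32 and -0.15 and 0 calls, and changed no call of a member. The last character of the title as a covariate left both medians at 0.00 and 0.26. Each title ending holds as many FLI as control samples, so this outcome was fixed in advance and is no check. The median SE over the 28 genes was 0.30 on the log2 scale, and at 108851495 reads or more a library the counting error is small beside it.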
